A study of Mus musculus with 6 samples.

Results

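The erythroid and globin genes described here are a list of 9 genes of red blood cells and their precursors, matched by symbol to the rows of a table of read counts from mouse liver tumours. Of the 52459 rows in the table, 8 carried a symbol of the list, and the ninth gene is not analysed here. The 8 were 4 adult globin rows (Hbb-bs, Hbb-bt, Hba-a1 and Hba-a2) and 4 rows of genes expressed in erythroid precursors (Alas2, Slc4a1, Klf1 and Epor). RNA came from 3 tumour samples labelled MYC-Off Day 4, taken 4 days after MYC inactivation, and from 3 labelled MYC-On, in which MYC was active. All 6 samples were liver tumours with the genotype MYC-LAP-tTA, in which a tetracycline transactivator under the liver-enriched LAP promoter drives a MYC transgene. The transgene is thus aimed at liver cells, and its activity in the blood cells that lie in the same tissue was not measured. The labels give no age for the mice and do not tie samples to animals. The spread behind each p-value is that between samples, and it may be technical. The study compared transcription in these tumours with MYC active and with MYC inactivated.

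Red cells form from progenitors that answer to erythropoietin through its receptor, Epor, and that switch on a set of transcription factors, among them Gata1, Tal1 and Klf1. These factors drive the globin genes, the haem pathway, which starts with Alas2 in erythroid cells, and the membrane proteins that give the red cell its shape, such as the anion exchanger Slc4a1. Globin messages outlast most others and stay in reticulocytes, the young red cells of circulating blood, after the nucleus has gone, whereas Klf1 and Epor are expressed in nucleated precursors. The liver is a site of erythropoiesis in the fetus, and in adult mice blood formation can return to it under stress.

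The promoters of the 3 most abundant globin rows and of Alas2 are shown because all of them were higher in MYC-Off Day 4. Each is the 250 bases before the transcript start in RefSeq, on mouse build GRCm38.p6, written 5′ to 3′ on the strand of the gene. Hbb-bs lies at chr7:103827929-103828178 on the minus strand and Hbb-bt at chr7:103813924-103814173 on the minus strand. Hba-a1 lies at chr11:32283422-32283671 on the plus strand and Alas2 at chrX:150547167-150547416 on the plus strand. Capitals mark 4 motifs. GATAA is the core bound by GATA factors. The KLF1 site is CCACACCCT, and it holds within it the 5 letters of the shorter CACCC box, which several factors of the same family can bind. The fourth is the CCAAT box, common upstream of vertebrate genes. Each was searched on both strands, so that a match on the other strand appears as the reverse complement of these letters.
Hbb-bs: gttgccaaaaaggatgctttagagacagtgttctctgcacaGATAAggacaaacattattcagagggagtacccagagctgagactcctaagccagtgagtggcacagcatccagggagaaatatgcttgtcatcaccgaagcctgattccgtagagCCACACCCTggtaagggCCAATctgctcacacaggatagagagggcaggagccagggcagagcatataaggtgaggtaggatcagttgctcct
Hbb-bt: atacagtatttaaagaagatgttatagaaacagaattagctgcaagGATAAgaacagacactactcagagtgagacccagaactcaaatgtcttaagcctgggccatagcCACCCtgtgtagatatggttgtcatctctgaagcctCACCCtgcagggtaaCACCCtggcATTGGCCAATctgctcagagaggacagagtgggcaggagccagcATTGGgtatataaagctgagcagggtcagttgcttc
Hba-a1: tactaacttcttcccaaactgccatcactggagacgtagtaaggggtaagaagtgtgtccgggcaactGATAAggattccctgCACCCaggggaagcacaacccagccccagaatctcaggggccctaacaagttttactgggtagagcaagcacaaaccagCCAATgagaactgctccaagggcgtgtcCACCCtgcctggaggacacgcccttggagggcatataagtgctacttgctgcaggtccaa
Alas2: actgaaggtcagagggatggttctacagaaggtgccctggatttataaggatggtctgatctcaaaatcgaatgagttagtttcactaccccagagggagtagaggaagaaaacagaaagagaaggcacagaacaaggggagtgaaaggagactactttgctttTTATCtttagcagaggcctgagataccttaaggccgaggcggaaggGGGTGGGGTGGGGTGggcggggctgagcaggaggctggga
The GATA core and the CACCC box were both found in the windows of all 7 members with an entry in the RefSeq promoter table, which were the 4 globins, Alas2, Klf1 and Epor. Over the same length, 22.6% of 32851 mouse promoters hold the GATA core and 52% hold the CACCC box. The CCAAT box was present in 5 of the 7, the 4 globins and Klf1, and in 33.8% of all promoters. The longer KLF1 site was found in Hbb-bs, 93 bases before the start, and in 0.724% of all promoters. The Hba-a1 and Hba-a2 windows were identical over the 247 bases they share, whereas those of Hbb-bs and Hbb-bt were equal at 127 of 249 positions when laid side by side without gaps. A match is a string of letters and does not show that a factor was bound.

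Libraries held between 18390620 and 19265623 reads on genes in MYC-Off Day 4 and between 16292718 and 18040619 in MYC-On, so that 1 read was worth between 0.0519 and 0.0614 CPM (reads scaled to the same library total). CPM values below were further scaled by the trimmed mean of M-values (TMM). Myc had 10.2 to 74.8 CPM in MYC-Off Day 4 and 779 to 1018 CPM in MYC-On. Its log2 fold change was -4.67 (SE 0.80, adjusted p = 0.0035, edgeR), and -6.08 without MYC-Off Day 4 replicate 1. The 20 most abundant genes took 29.9% to 39.1% of reads in MYC-Off Day 4 and 11.7% to 19.2% in MYC-On. The 10 hepatocyte markers all had reads in both groups, and their summed level was 111339 to 282005 CPM in MYC-Off Day 4 against 3361 to 7674 CPM in MYC-On. MYC-Off Day 4 replicate 3 stood apart from its group in some liver markers: Clec4f, a Kupffer cell lectin, had 4024, 3549 and 0 reads in MYC-Off Day 4 against 38, 4 and 16 in MYC-On. Cyp2e1, a hepatocyte cytochrome P450, had 982, 5718 and 2.15 CPM in MYC-Off Day 4 against 48.9, 4.75 and 6.71 CPM in MYC-On.

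Transcripts of the 7 tested members were low in MYC-On tumours and were higher in every MYC-Off Day 4 library. Of the 8 rows, 7 passed the filter on low counts, and all 7 were higher in MYC-Off Day 4 at an adjusted p under 0.05 in edgeR's quasi-likelihood test. The background was high, because 29.9% of the 14130 genes tested were called higher in this comparison. Each of the 7 had all of its MYC-Off Day 4 libraries above all of its MYC-On libraries, a separation shown by 33.2% of all genes tested. In bulk tissue, fewer cells of a type and less RNA per cell cannot be told apart.

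**Figure D1:**
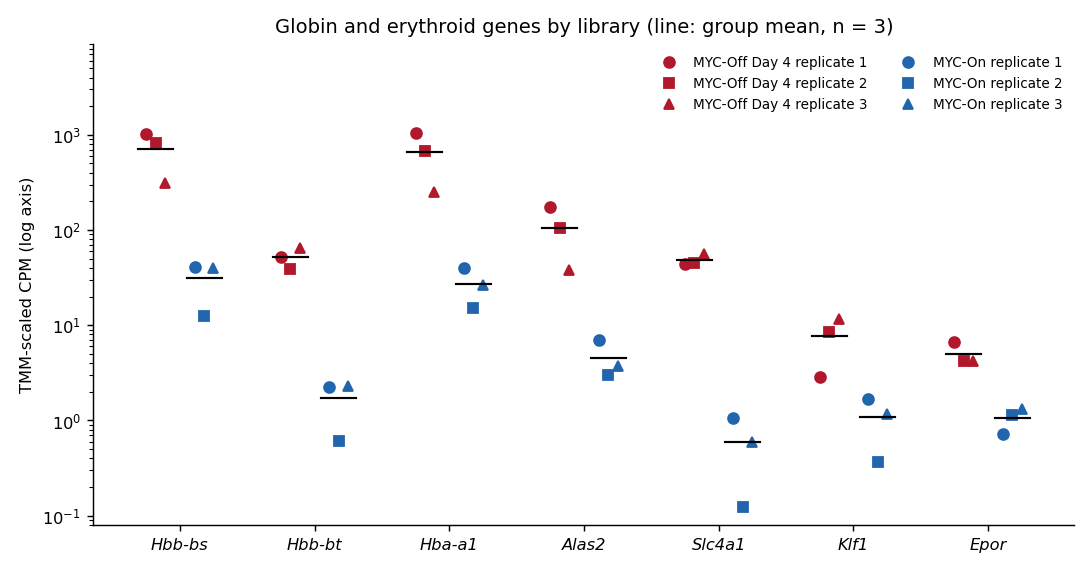
TMM-scaled CPM of the 7 tested rows on a log axis, 1 point per library with the group mean (n = 3) as a line, MYC-Off Day 4 left of MYC-On. The groups overlap for none of the 7, and Klf1 in MYC-Off Day 4 replicate 1 (2.86 CPM) comes nearest to the MYC-On libraries.

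The adult globins carry oxygen as tetramers of alpha and beta chains. Hbb-bs, a beta globin (chromosome 7, 103826534 to 103828096, minus strand, mm10), had 1015, 816 and 312 CPM in MYC-Off Day 4, against 41.3, 12.4 and 40.2 CPM in MYC-On. The lowest MYC-Off Day 4 library, replicate 3, was still far above the highest MYC-On library, and the log2 fold change was 4.51 (SE 0.68, adjusted p = 0.00224). Hba-a1, an alpha globin (chromosome 11, 32283511 to 32284465, plus strand), had 1037, 674 and 250.3 CPM in MYC-Off Day 4, against 40.1, 15.3 and 26.7 CPM in MYC-On. Its libraries stood in the same order within MYC-Off Day 4 as those of Hbb-bs, and its log2 fold change was 4.58 (SE 0.66, adjusted p = 0.00194), or 3.93 without MYC-Off Day 4 replicate 1. Hbb-bt, the other adult beta globin row (chromosome 7, 103812524 to 103813996, minus strand), had 52.3, 38.6 and 64.4 CPM in MYC-Off Day 4, against 2.27, 0.614 and 2.32 CPM in MYC-On. Unlike the first pair, Hbb-bt was highest in MYC-Off Day 4 replicate 3, and its log2 fold change was 4.90 (SE 0.54, adjusted p = 0.000979). Hba-a2 (chromosome 11, 32296489 to 32297298, plus strand) had 3, 0 and 1 reads in MYC-Off Day 4, against 2, 0 and 0 in MYC-On, and was not tested.

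The globin rows share sequence, and the sources used here do not say how reads with several matches were counted. Of all 50-base windows of the annotated transcripts, 72.3% of those of Hba-a1 and 89.3% of those of Hba-a2 occur in another gene of the annotation. For Hbb-bs and Hbb-bt the shares were 53.2% and 58.3%, and no window of the other members was shared. The split between the paralogs is therefore uncertain, so the alpha and the beta rows were also summed before fitting. The summed beta rows gave a log2 fold change of 4.54 (adjusted p = 0.00195) and the summed alpha rows 4.58 (adjusted p = 0.00195) in edgeR's test.

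The share of Hbb-bt among beta globin reads set 1 library apart. It was 4.89% (95% Wilson interval 4.60 to 5.21%), 4.51% (4.14 to 4.91%) and 17.1% (16.1 to 18.2%) in MYC-Off Day 4 replicates 1 to 3. In MYC-On it was 5.21% (3.99 to 6.79%), 4.73% (2.89 to 7.66%) and 5.45% (4.12 to 7.18%). The intervals cover counting error alone, and that of MYC-Off Day 4 replicate 3 overlapped none of the other 5. This library held 839 Hbb-bt reads and 4057 Hbb-bs reads, against 951 and 18481 in MYC-Off Day 4 replicate 1. Alpha globin reads made up 49.3%, 44.1% and 40.0% of globin reads in MYC-Off Day 4 and 48.0%, 54.2% and 38.6% in MYC-On, so that the shares overlapped between the groups and alpha reads were never under 38.6%.

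Among the precursor genes, Alas2 encodes the erythroid form of the enzyme that makes the first haem precursor (chromosome X, 150547375 to 150570638, plus strand). It had 175, 104 and 38.3 CPM in MYC-Off Day 4, against 6.95, 3.03 and 3.70 CPM in MYC-On. It was highest in replicate 1 and lowest in replicate 3 of MYC-Off Day 4, as Hbb-bs and Hba-a1 were, and its log2 fold change of 4.54 (SE 0.64, adjusted p = 0.00183) was close to theirs. Without MYC-Off Day 4 replicate 1 it was 3.82. Its exons overlap those of Apex2 and Mir3620 on the other strand, and the strand setting of the counting is not given in the sources used here. Apex2, a DNA repair nuclease, moved in the opposite direction, with 5.88, 8.65 and 7.07 CPM in MYC-Off Day 4 against 15.19, 18.99 and 15.98 CPM in MYC-On (log2 fold change -1.22, adjusted p = 0.0103).

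Slc4a1, the band 3 anion exchanger of the red cell membrane (chromosome 11, 102348824 to 102366203, minus strand), had the largest log2 fold change of the 7 tested members. It had 44.0, 45.1 and 55.9 CPM in MYC-Off Day 4, against 1.07, 0.123 and 0.592 CPM in MYC-On. The MYC-Off Day 4 libraries agreed within 1.27-fold, the smallest spread of the members, while the MYC-On values rested on 24, 3 and 12 reads. The log2 fold change was 6.34 (SE 0.65, adjusted p = 0.000896), and 7.04 without MYC-On replicate 1.

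Klf1, the erythroid transcription factor that binds CACCC boxes (chromosome 8, 84901928 to 84905291, plus strand), had 2.86, 8.42 and 11.7 CPM in MYC-Off Day 4, against 1.69, 0.368 and 1.18 CPM in MYC-On. Its order within MYC-Off Day 4 was the reverse of that of Alas2, with replicate 1 lowest and nearest to MYC-On. The log2 fold change was 2.82 (SE 0.74, adjusted p = 0.0168), and it missed the threshold without MYC-On replicate 2 (adjusted p = 0.0563) and without MYC-On replicate 3 (0.0638). Epor, the erythropoietin receptor (chromosome 9, 21958897 to 21963506, minus strand), had 6.70, 4.21 and 4.22 CPM in MYC-Off Day 4, against 0.713, 1.15 and 1.33 CPM in MYC-On. Its log2 fold change of 2.24 (SE 0.47, adjusted p = 0.0070) was the smallest of the 7, and it missed the threshold when libraries were scaled by their total alone (log2 fold change 1.58, adjusted p = 0.0503). The MYC-On values of Epor rested on 16, 28 and 27 reads.

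Levels of different genes were compared as CPM per kilobase of annotated exon, mean ± SD over 3 libraries. In MYC-Off Day 4, Hbb-bs stood at 930 ± 472 CPM per kilobase and Hba-a1 at 805 ± 485, a difference smaller than either SD. Hbb-bt followed at 73.6 ± 18.4, Alas2 at 44.1 ± 28.5, Slc4a1 at 9.88 ± 1.35, Klf1 at 5.0 ± 2.9 and Epor at 2.54 ± 0.722 CPM per kilobase. Within this order the SD ranges of Hbb-bt and Alas2 overlapped, as did those of Klf1 and Epor. In MYC-On the level of Hbb-bs was 40.7 ± 21.3 CPM per kilobase, that of Hba-a1 33.7 ± 15.3, that of Hbb-bt 2.47 ± 1.38 and that of Alas2 1.90 ± 0.872. Klf1 came next at 0.707 ± 0.437 and Epor at 0.535 ± 0.160, and Slc4a1 was lowest at 0.122 ± 0.0967 CPM per kilobase. Slc4a1 thus ranked above Klf1 and Epor in MYC-Off Day 4 and below them in MYC-On.

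The mature globins were contrasted with the precursor genes as a ratio of reads within each library. Summed over 4 rows each, globin reads outnumbered precursor reads 9.20, 9.44 and 5.69 to 1 in MYC-Off Day 4, against 8.04, 6.07 and 10.2 to 1 in MYC-On. The groups overlapped, and the mean log2 ratio differed by -0.00213, well within the pooled SD of 0.393. Over Alas2 alone the ratio was 12.0, 14.7 and 16.3 in MYC-Off Day 4 and 12.1, 9.35 and 18.7 in MYC-On.

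Gene by gene, the ratio to globins differed in direction. Globin reads per Slc4a1 read were 47.9, 33.9 and 11.2 in MYC-Off Day 4, against 78.4, 230.7 and 117 in MYC-On, a mean log2 difference of -2.29 with no overlap. Per Epor read they were 314, 363 and 148 in MYC-Off Day 4, against 118, 24.7 and 52.0 in MYC-On, a difference of 2.27 in the other direction, again with no overlap. Per Klf1 read they were 737, 182 and 53.7 in MYC-Off Day 4, against 49.5, 76.9 and 58.5 in MYC-On, a difference of 1.67 with overlap through MYC-Off Day 4 replicate 3. Relative to globins, the membrane gene was thus more abundant in MYC-Off Day 4 and the receptor less so. These ratios are scores over the members and were given no test.

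**Figure D2:**
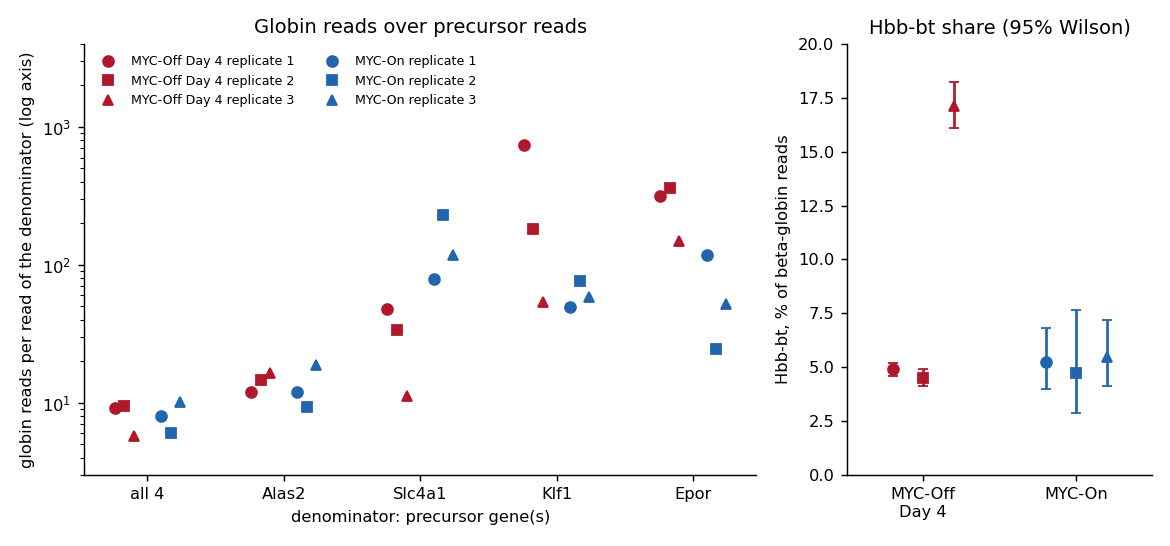
The left panel shows globin reads per precursor read by library on a log axis, over the 4 precursor rows and over each alone, and the right panel the Hbb-bt share of beta globin reads with 95% Wilson intervals, MYC-Off Day 4 left of MYC-On. The summed ratio overlaps between the groups (5.69 to 9.44 in MYC-Off Day 4, 6.07 to 10.2 in MYC-On), while the ratio over Slc4a1 is lower and that over Epor higher in every MYC-Off Day 4 library, and the Hbb-bt share is 17.1% in MYC-Off Day 4 replicate 3 and at most 5.45% elsewhere.

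Other genes of the red cell were read from 6 further lists (fetal and minor globins, transcription factors, membrane proteins, haem synthesis, late erythroid genes and erythropoietin signalling). Of 95 genes with a row, 84 were tested, 50 were higher and 7 lower in MYC-Off Day 4, against backgrounds of 29.9% higher and 22.8% lower over all genes. The median log2 fold change over all genes tested was 0.18, with the central 90% of genes between -2.43 and 4.24.

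Membrane genes were the list nearest to Slc4a1. Of 17 tested, 12 were higher and 0 lower (2 lower with library size as the only scaling), and the median log2 fold change was 4.26. Of the 12 genes called higher, 11 stood under a mean of 1 CPM in MYC-On, and 7 had at most 10 reads over the MYC-On libraries. Those 7 passed the filter on low counts through MYC-Off Day 4, so they could not have been called lower. The 5 tested genes that did not pass (Epb41, Gypc, Dmtn, Xk and Slc2a1) all had a MYC-On mean of at least 4.12 CPM. After their values were seen, 2 were singled out: Epb42, a band 3 partner protein, had 212 reads in MYC-Off Day 4 and 1 in MYC-On (scaled ratio 322, 95% counting interval 57.1 to 12759), and Rhag, a membrane channel of the Rh complex, had 177 in MYC-Off Day 4 and 1 in MYC-On (268, 47.6 to 10662).

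Transcription factors of the erythroid programme behaved less evenly. Of 16 tested, 11 were higher and 1 lower (2 lower with library size as the only scaling), with a median log2 fold change of 3.02. Of the 11, 5 were highest in MYC-Off Day 4 replicate 1, 2 in replicate 2 and 4 in replicate 3. The 10 leukocyte genes described below were all highest in replicate 1. The part of other blood cells in these factors was not tested. Tal1 averaged 7.60 ± 1.15 CPM in MYC-Off Day 4 and 0.372 ± 0.0526 CPM in MYC-On (log2 fold change 4.33, adjusted p = 0.000882), and Myb, a factor of dividing progenitors, averaged 1.89 ± 0.240 CPM in MYC-Off Day 4 and 0.103 ± 0.0174 CPM in MYC-On (4.10, adjusted p = 0.00124), with 7 reads over the MYC-On libraries. Gata1, the master regulator of the lineage, was singled out after its values were seen: it had 42, 19 and 60 reads in MYC-Off Day 4, against 1, 0 and 0 in MYC-On (scaled ratio 184, counting interval 32.3 to 7307). The 1 factor that was lower was Ldb1, a widely expressed adaptor of the Gata1 complex, at -1.06 (adjusted p = 0.00494), and 2 were lower without MYC-Off Day 4 replicate 2. Zfpm1, the Gata1 partner FOG1, had 26.8, 60.5 and 72.0 CPM in MYC-Off Day 4 and 38.8, 80.6 and 38.6 CPM in MYC-On, and did not pass (log2 fold change 0.01).

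Late erythroid genes were called in 17 of 18 tests, 15 higher and 2 lower, with a median log2 fold change of 3.08. Hemgn, a nuclear protein of erythroid cells, averaged 10.4 ± 1.91 CPM in MYC-Off Day 4 and 0.105 ± 0.0539 CPM in MYC-On (log2 fold change 6.55, adjusted p = 0.000805), with 7 reads over the MYC-On libraries. Car2, a carbonic anhydrase of red cells and other tissues, averaged 36.7 ± 3.60 CPM in MYC-Off Day 4 and 3.04 ± 0.534 CPM in MYC-On (3.59, adjusted p = 0.000805). The 2 lower genes, Isg20 (-1.20), an exonuclease induced by interferon, and Xpo7 (-0.94), a nuclear transport receptor, are also expressed outside the lineage, and neither was called lower without MYC-On replicate 1 or without MYC-On replicate 2. Isg20 was not called without MYC-On replicate 3 either (adjusted p = 0.0643). Some of the 15 higher genes, named after their values were seen, also had high MYC-On means: Ube2l6 41.0 CPM, Bnip3l 38.8 CPM and Bpgm 31.2 CPM. Tspan8 was highest in MYC-Off Day 4 replicate 3, with 15.4, 5.28 and 114 CPM in the group. The part of other cells in these genes was not tested.

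Embryonic and minor globins were close to absent. Of 8 with a row, 0 passed the filter, and 7 had no read in any MYC-On library. Hbq1b, a theta-type globin of the alpha cluster, was the most abundant, with 17, 4 and 4 reads in MYC-Off Day 4 and 0 in MYC-On, at least 12.6-fold higher against a floor of 3 reads over the group. Hbb-y, the embryonic beta-like globin, had 1, 1 and 0 reads in MYC-Off Day 4 and 0 in MYC-On. The globin signal of both groups was thus almost wholly adult alpha and beta.

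Haem synthesis did not follow Alas2. Of 14 tested genes, 2 were higher and 1 lower (1 and 6 with library size as the only scaling), and the median log2 fold change of 0.21 was near that of all genes. Alas1, the form of the first enzyme used by most tissues, averaged 226 ± 219 CPM in MYC-Off Day 4 and 44.9 ± 1.69 CPM in MYC-On (log2 fold change 2.33, adjusted p = 0.0201), or 1.07 without MYC-Off Day 4 replicate 2. Fech, the final enzyme, averaged 140.1 ± 58.2 CPM in MYC-Off Day 4 and 48.3 ± 5.54 CPM in MYC-On (1.54, adjusted p = 0.00694). Glrx5, a mitochondrial iron-sulfur cluster protein, was lower at -0.97 (adjusted p = 0.0271). This list was sensitive to single libraries, with 6 genes higher without MYC-Off Day 4 replicate 1 and 1 higher without any one of the MYC-On replicates. No gene of the list was called lower without any one of the MYC-On replicates.

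Genes of erythropoietin signalling and iron uptake were mixed, with 10 of 19 tested genes higher and 3 lower (5 lower with library size as the only scaling) and a median log2 fold change of 1.23. The background over all genes was 29.9% higher and 22.8% lower. Jak2, the kinase bound to Epor, averaged 39.3 ± 7.32 CPM in MYC-Off Day 4 and 9.86 ± 1.13 CPM in MYC-On (log2 fold change 2.00, adjusted p = 0.00118). Bcl2l1, a survival gene of maturing erythroblasts, averaged 76.7 ± 8.07 CPM in MYC-Off Day 4 and 20.8 ± 5.06 CPM in MYC-On (1.88, adjusted p = 0.00149). Both are expressed in many cell types. The 3 lower genes, named after their values were seen, were Tfrc, the transferrin receptor (-1.39, adjusted p = 0.00375), Kit, the stem cell factor receptor (-1.36, adjusted p = 0.0101), and Erfe, the erythroid hormone that represses hepcidin (-4.01, adjusted p = 0.00509). Erfe had 10, 1 and 5 reads in MYC-Off Day 4, against 73, 230 and 88 in MYC-On, so that its direction was opposite to that of all 7 tested members, and its log2 fold change was -4.72 without MYC-Off Day 4 replicate 1. Epo itself had 2 reads in MYC-Off Day 4 and 0 in MYC-On, under the floor of 3 reads.

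**Figure D3:**
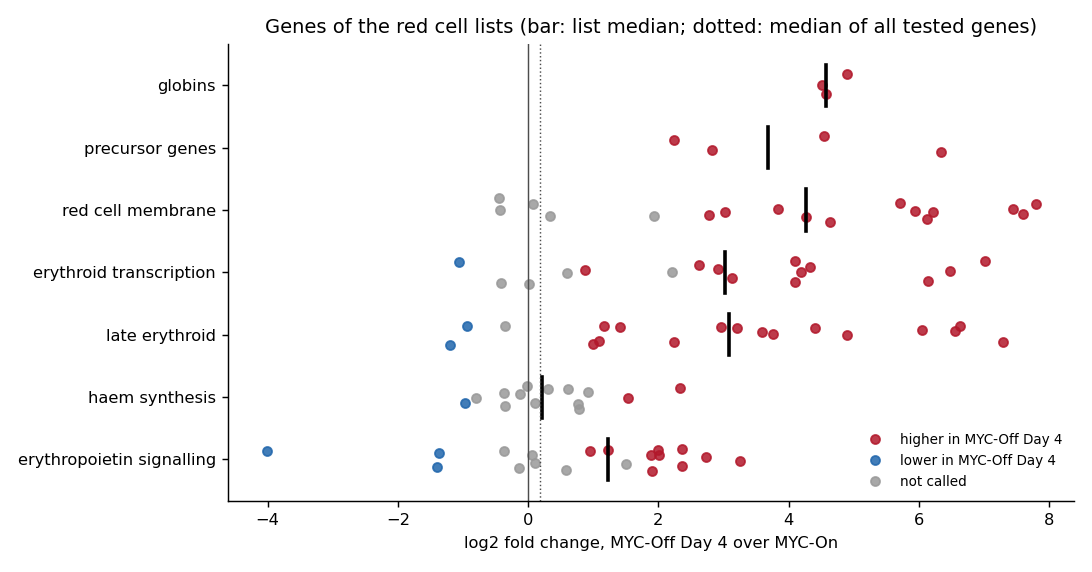
Log2 fold changes, MYC-Off Day 4 over MYC-On, of the tested members and of the genes in the red cell lists, 1 point per gene with the list median as a bar and the median of all genes (0.18) as a dotted line. Membrane (median 4.26), late erythroid (3.08) and transcription factor (3.02) genes lie mostly above 0, and haem synthesis genes (0.21) lie around the line.

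The MYC-Off Day 4 libraries differed from each other in a way that divided the members. Hbb-bs, Hba-a1 and Alas2 were highest in replicate 1 and lowest in replicate 3, by 3.26-fold, 4.14-fold and 4.57-fold. Slc4a1, Klf1 and Hbb-bt were highest in replicate 3. The 12 membrane genes called higher had a median spread of 1.80-fold over the same libraries, between 1.09-fold and 2.62-fold, and 7 of the 12 were highest in replicate 3. Among the late erythroid genes called higher the median spread was 1.87-fold, between 1.15-fold and 21.7-fold, and 8 of 15 were highest in replicate 1. The 11 transcription factors called higher spread more widely, with a median of 3.99-fold and a range of 1.28-fold to 14.7-fold. Without MYC-Off Day 4 replicate 3, all 7 members were still called higher, with log2 fold changes of 4.79 for Hbb-bs, 4.63 for Hbb-bt, 4.89 for Hba-a1, 4.87 for Alas2, 6.13 for Slc4a1, 2.25 for Klf1 and 2.29 for Epor. The counts of genes called higher without it were 12 membrane, 15 late erythroid, 10 transcription factor, 9 erythropoietin signalling and 2 haem synthesis genes.

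**Figure D4:**
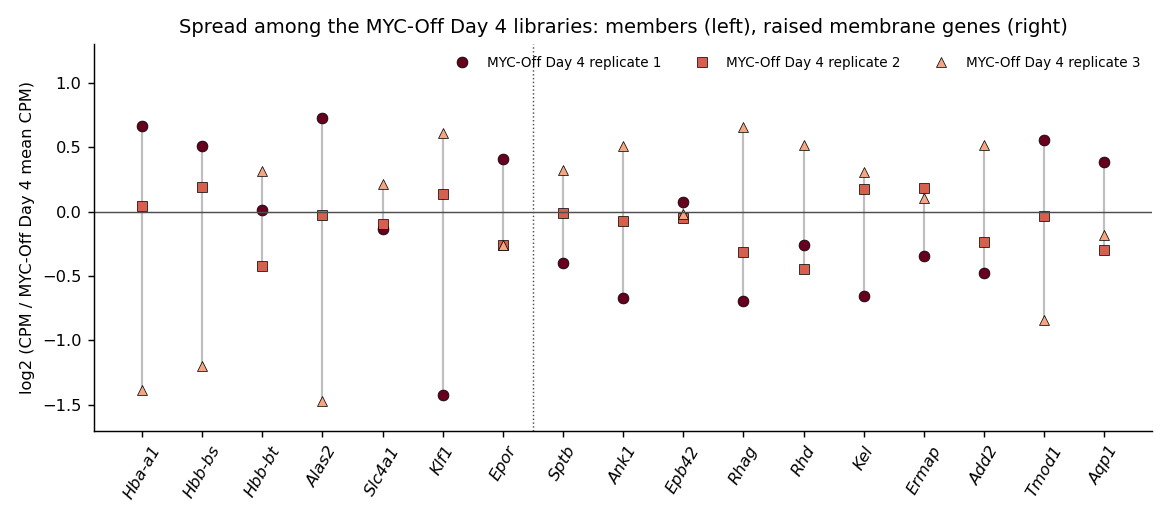
CPM of each MYC-Off Day 4 library relative to the mean of the 3, on a log2 axis, for the 7 tested members (left) and 10 of the 12 membrane genes called higher (right). Replicate 3 is lowest for Hba-a1, Hbb-bs and Alas2 and highest for Slc4a1, Klf1, Hbb-bt and 6 of the 10 membrane genes shown.

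Markers of other blood and liver cells differed between the groups mostly in the same direction as the erythroid genes. For comparison, 29.9% of all tested genes were called higher. Of 14 platelet and megakaryocyte genes tested, 13 were higher and 0 lower, with a median log2 fold change of 5.45 (5.22 with genes of few MYC-On reads set at the floor). The summed level of all 16 was 78.5 to 163 CPM in MYC-Off Day 4 and 5.52 to 8.78 CPM in MYC-On, with Gp6, Treml1 and Tubb1 at 0 in every MYC-On library. Vwf, shared by platelets and endothelium, was higher by 5.65, and Pf4, a platelet granule chemokine, by 5.20. All 11 neutrophil genes tested were higher (median 6.24), with a summed level of 180 to 299 CPM in MYC-Off Day 4 against 3.83 to 5.16 CPM in MYC-On. Ngp and Camp, granule proteins made in immature neutrophils of the marrow, were higher by 8.03 and 7.54, values that rest on 14 and 5 reads over the MYC-On libraries. Of the genes called higher, 8 platelet and 6 neutrophil genes had at most 10 reads over the MYC-On libraries. They passed the filter on low counts through MYC-Off Day 4, so they could not have been called lower. Of 9 genes of blood progenitors tested, 7 were higher and 0 lower (median 2.74), among them Spi1 (3.03), a myeloid and lymphoid factor, and Cd34 (2.74), which endothelium also expresses, and 2 were higher without MYC-On replicate 2. Without MYC-Off Day 4 replicate 1, Spi1 stood at 1.87 and Cd34 at 2.06. The summed level of the progenitor genes was 677 to 890 CPM in MYC-Off Day 4 and 282 to 332 CPM in MYC-On, and Hoxa9 was at 0 in every MYC-On library. Cebpa, which hepatocytes also express, supplied 245, 561 and 685 CPM of that sum in MYC-Off Day 4 and 203 to 242 CPM in MYC-On. Without Cebpa the sum was 432, 212 and 205 CPM in MYC-Off Day 4, against 105, 78.8 and 90.5 CPM in MYC-On.

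Leukocyte genes were higher in 10 of 10 tests (median 2.59) and endothelial genes in 10 of 13, with 0 lower (median 2.93). The share called higher over all tested genes was 29.9%. Summed levels of the leukocyte genes were 568 to 2725 CPM in MYC-Off Day 4 and 202 to 273 CPM in MYC-On, and those of the endothelial genes 511 to 1068 CPM in MYC-Off Day 4 and 120 to 141 CPM in MYC-On. Lcp1 (2.28), an actin-bundling protein of leukocytes, and Cd52 (4.00), a leukocyte surface peptide, were higher, as were Fcgr2b (4.92), an Fc receptor of liver sinusoidal endothelium and B cells, and Cdh5 (2.93), an endothelial cadherin. Of 10 Kupffer cell genes 7 were higher and 0 lower (median 2.39), including Adgre1 (2.46) and Csf1r (2.71), both of macrophages. Groups did not overlap for 5 of the 10, with MYC-Off Day 4 the higher, a separation shown by 33.2% of all genes tested. Of the 7 called higher, 2, Clec4f and Vsig4, overlapped because MYC-Off Day 4 replicate 3 had 0 and 6 reads of them. Vsig4, a complement receptor, had 3016 and 1637 reads in the other MYC-Off Day 4 libraries, and 26, 3 and 41 in MYC-On. Without replicate 3 all 10 Kupffer cell genes were called higher. The summed level of the Kupffer cell genes was 953 to 7163 CPM in MYC-Off Day 4 and 520 to 932 CPM in MYC-On. The 953 CPM were those of MYC-Off Day 4 replicate 3, so that its place above MYC-On is narrow and depends on the scaling. The TMM factor was 0.677 for that library and 1.25 to 1.36 for the MYC-On libraries. The leukocyte and Kupffer counts dropped when a MYC-On library was left out, with 2 genes of each list called higher without MYC-On replicate 2 and 4 of each without MYC-On replicate 3. Over the 16 alternatives the leukocyte count changed little in 9 and the Kupffer count in 11. At an adjusted p of 0.01 in edgeR's test, Lcp1 and Cd52 were the only leukocyte genes called higher. Without MYC-On replicate 1, 3 leukocyte genes and 2 Kupffer cell genes were called higher. Without MYC-Off Day 4 replicate 1, Lcp1 stood at 1.52, Cd52 at 2.10, Adgre1 at 1.71 and Csf1r at 1.94. Leukocyte genes were highest in MYC-Off Day 4 replicate 1 in 10 of 10 cases, with a median spread of 5.87-fold, whereas 7 of 11 neutrophil genes were highest in replicate 3.

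All 10 hepatocyte markers were higher (median 3.62), among them Ahsg (5.91) and Serpina1a (3.53), both secreted into plasma. Over all genes tested 29.9% were called higher and 22.8% lower, and 33.2% had MYC-Off Day 4 wholly above MYC-On. For 9 of the 10 hepatocyte markers the groups did not overlap, and the exception was Cyp2e1, through MYC-Off Day 4 replicate 3. All 10 were called higher without that library too. Within MYC-Off Day 4 the summed hepatocyte level was 111339, 186031 and 282005 CPM in replicates 1 to 3. The summed globin level ran the other way, at 2105, 1529 and 626 CPM. All 8 proliferation genes were lower (median -4.03), including Mki67 (-3.08) and Cenpf (-3.84, or -4.48 without MYC-Off Day 4 replicate 1), with summed levels of 71.2 to 152 CPM in MYC-Off Day 4 and 1120 to 1445 CPM in MYC-On. No defining marker of these cell types other than those named was at 0 in every MYC-On library, and the part of these cells in the erythroid values was not tested.

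**Figure D5:**
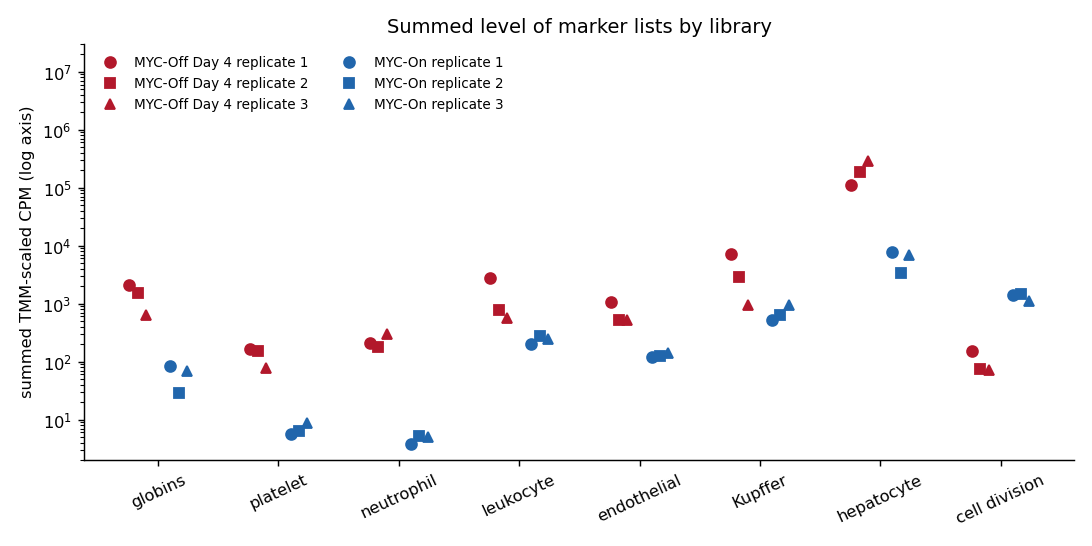
Summed CPM of each marker list by library on a log axis, MYC-Off Day 4 left of MYC-On. Globins (626 to 2105 CPM in MYC-Off Day 4, 28.3 to 83.8 CPM in MYC-On) and the platelet, neutrophil, leukocyte, endothelial and hepatocyte lists are higher in every MYC-Off Day 4 library, and proliferation genes lower. The Kupffer list is clearly higher in MYC-Off Day 4 replicates 1 and 2 only, because replicate 3 (953 CPM) nearly meets the highest MYC-On library (932 CPM).

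Genes that clear spent red cells and recycle their iron were also mostly higher, in 13 of 16 tests with 0 lower (median 2.30). The background over all genes was 29.9% higher. Hpx, the plasma carrier of free haem, averaged 11427 ± 5564 CPM in MYC-Off Day 4 and 162 ± 40.6 CPM in MYC-On (log2 fold change 6.14, adjusted p = 0.000967). Slc48a1, a haem transporter of lysosomes, averaged 129.7 ± 35.5 CPM in MYC-Off Day 4 and 24.5 ± 3.08 CPM in MYC-On (2.40, adjusted p = 0.00103). The count was 7 without MYC-On replicate 1, 7 without MYC-On replicate 2 and 8 without MYC-On replicate 3, and 8 with library size as the only scaling. Hepatocytes make Hpx, so the list does not speak of macrophages alone.

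The genes whose log2 CPM most resembled the members over the 6 libraries were ranked by Pearson's r. The ranking covered 12516 tested genes that averaged 1 CPM or more, with the members, unnamed gene models and symbols turned into dates left out. Those most like the mean of the 4 globin rows were Cyp3a16 (r = 0.998), Plscr4, Hist1h1c, Afp and Herpud2, with r of 0.995 or more. In that mean the untested Hba-a2, a row of few reads, weighed as much as each other row. After group means were taken away, r was 0.978 for Cyp3a16 and 0.936 for Herpud2. For the mean of Alas2, Slc4a1 and Klf1 the most similar genes were F11 (r = 0.997), Nrn1, Serpina1d, Fgl1 and Ndel1. For Epor they were Tox (r = 0.997), B3gnt8, Mmp2, Hid1 and Cebpd. None of the 15 belongs to the red cell lists. The points are 6 libraries in 2 groups with 52.7% of all genes called different, so high values were common, and the values are a description without a test.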

How the data were processed

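Total RNA of 6 flash frozen liver tumour samples was sequenced, and the authors deposited whole-number read counts per gene symbol, not normalized. The submitters' processing notes name mm10 and the tools STAR, featureCounts, Trimmomatic, Picard and DESeq2. Their versions, the annotation, the strand setting and how multiply matching reads were treated are not given in sources used here. Groups and replicate numbers came from sample titles. The column names of all libraries share 1 run of letters and digits. The closing code for MYC-Off Day 4 replicate 3 falls outside the consecutive numbers of the other libraries. What these codes stand for is not given in sources used here. Coordinates came from GENCODE mouse release 21, which matched 91.7% of symbols.

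MYC-Off Day 4 was compared with MYC-On over all genes in edgeR 4.0.16 (R 4.3.3). The settings were a filterByExpr minimum count of 10 and total of 15, TMM and a robust quasi-likelihood test. Benjamini-Hochberg adjustment covered all 14130 tested genes, with a threshold of 0.05. The fit was first tried on simulated counts in which few genes changed. In the real data 52.7% of tested genes were called, so that trial could not test the scaling. Log2 fold changes are MYC-Off Day 4 over MYC-On. The test gives no standard error, so each SE is the absolute log2 fold change divided by the square root of its F statistic. Intervals (95%) and the floor of 3 reads over a group cover counting error alone. Likeness used log2 CPM with a prior count of 2.

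Members and lists were chosen with earlier results of these data known. In each list the 2 called genes with the smallest adjusted p were named, all where 5 or fewer passed, or the most abundant where none did, and other genes, including Ldb1, Zfpm1, Isg20, Xpo7, Hbb-y, Epo, Apex2, Clec4f, Vsig4, Cyp2e1, Cebpa and the membrane genes that did not pass, were chosen after their values were seen. Of the genes picked by this rule, 2 are not reported here. The precursor ratio and mean lack the gene not analysed here. Alternatives were DESeq2 size factors, library size alone, library size without the 20 most abundant genes, no filter, 1 CPM in 3 libraries, DESeq2 1.42.0, limma-voom (limma 3.58.1), an adjusted p of 0.01, a replicate block, a non-robust fit, summed paralogs and leaving out each library. Libraries of a group differed beyond counting noise, with a chi-square of at least 32.1 for each degree of freedom.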

Additional observations from a re-analysis of the deposited data

How the results depend on the processing

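Hbb-bs, Hbb-bt, Hba-a1, Alas2 and Slc4a1 were called higher in MYC-Off Day 4 under all 16 alternatives, with log2 fold changes of 3.89 to 4.79, 4.19 to 5.11, 3.93 to 4.90, 3.82 to 4.92 and 5.61 to 7.04. Klf1 ranged from 1.98 to 3.25 and missed its threshold at 0.01 as well as without MYC-On replicate 2 or 3. Epor ranged from 1.58 to 2.38, and 6 members were called with library size alone. Over all genes 4222 were higher and 3221 lower, against 2527 and 5300 with library size alone, which moved the median of all genes by -0.74, and 2368 and 1889 at an adjusted p of 0.01. Called genes were 56.7% higher with TMM, 32.3% with library size alone and 42.8% without the 20 most abundant genes. Leaving out 1 library gave 2776 to 4317 higher, the lowest without MYC-On replicate 2, and 2337 to 3786 lower. Of the 84 red cell genes, 50 higher became 41 to 51 over the alternatives, and 7 lower became 18 with library size alone, 11 without the 20 most abundant genes, 3 at an adjusted p of 0.01 and 4 to 9 when a library was left out, with 4 without MYC-On replicate 1 or 2. The log2 difference in the globin to precursor ratio, -0.00213, was -2.29 over Slc4a1 alone, 1.67 over Klf1 alone, 2.27 over Epor alone and -0.194 to 0.235 when a library was left out. The cause of these changes was not tested.

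Deviations from the group means correlated at -0.262, -0.168 and 0.040 between same-numbered libraries. Between libraries of different numbers the correlations were -0.115 to 0.321. With 3 libraries in a group, these values cannot show whether the numbers pair samples. A replicate block gave 3152 genes higher and 2611 lower over all genes, 49 higher and 5 lower among the red cell genes and 6 of 7 members, with Klf1 at an adjusted p of 0.055. Depth limits Hba-a2, the minor globins and the MYC-On values of Slc4a1, Klf1 and Epor, which rest on few reads. Slc4a1, Klf1 and Epor had 39, 71 and 71 reads over the MYC-On libraries. Of the genes called higher, 11 of 12 membrane, 12 of 13 platelet, 9 of 11 neutrophil, 7 of 11 transcription factor and 6 of 15 late erythroid genes averaged under 1 CPM in MYC-On, so that their fold changes are imprecise. Among them, 7 membrane, 8 platelet, 6 neutrophil, 3 transcription factor and 3 late erythroid genes had at most 10 reads over the MYC-On libraries. Such genes passed the filter through MYC-Off Day 4, so their direction was fixed in advance. Without a filter Hba-a2 had a log2 fold change of 1.25 and an adjusted p of 0.54.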
